A study of Mus musculus with 2 samples.

Results

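Among lung γδ T cells that carry the Vγ1 receptor chain, 766 of 6634 kept cells had transcripts of both Ly6c2 and Ccl5 and passed the exclusions below. They made up 11.5% of the kept cells (exact Clopper-Pearson 95% interval 10.8% to 12.3%). Cells were chosen by their own UMI counts. A cell was taken if it held at least 1 unique molecular identifier (UMI, a tag that marks 1 captured RNA molecule) of Ly6c2 and 1 of Ccl5. It also had to hold no Cd8b1 UMI, no UMI of the Trav15-dv6 genes, UMIs in fewer than 3 of 8 IL-17-type genes (Tmem176a, Tmem176b, Cxcr6, Il18r1, Aqp3, Ccr6, Icos and Serpinb1a), and UMIs in fewer than 3 of 7 cytotoxic genes (Gzma, Gzmb, Klre1, Prf1, Xcl1, Klrb1c and Eomes). Of 1336 cells with both UMIs, 570 were set aside by these exclusions. The genes given as marks of this state are Ly6c2 and Ccl5, which chose the cells, and Klrd1, Klrc1 and Sidt1, which did not.

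The cells came from freshly collected lungs of uninfected mice aged 5 to 7 weeks, sorted by flow cytometry into 2 droplet libraries, 1 per group. The KO library held Vγ1+ cells from the strain labelled B6.Cg-Tcrgtm1lku(B6.Vg4-/-Vg6-/-), which by its label lacks the Vγ4 and Vγ6 genes. The WT library held Vγ1- γδ T cells from C57BL/6NCrl mice, and 286 of its 2505 kept cells met the same rule. How many mice were pooled is not given in the sources used here, and mice of both sexes were used. With 1 library per group no difference between groups could be tested, and every interval below covers counting error only.

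γδ T cells leave the thymus with much of their later behaviour already set. One branch makes IL-17, and the other, marked by CD27 and the receptor subunit CD122 (Il2rb), makes interferon-γ under the transcription factor T-bet (Tbx21). Ly6C, the surface protein encoded by Ly6c2, is carried by memory T cells of the interferon-γ type. CCL5 is a chemokine that memory and cytotoxic lymphocytes store and release. CD94 (Klrd1) pairs with NKG2A (Klrc1) to form a receptor for a non-classical MHC molecule that dampens killing, and Sidt1 encodes a membrane protein linked to transport of double-stranded RNA.

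The KO library gave 26436826 UMIs over 6688 barcodes and the WT library 9173997 over 2520. The 2 libraries shared 23 barcodes. Median depth was 3407.5 UMIs per Ly6c2+Ccl5+ cell and 3521 in the whole KO library. The targeted genes were read first. No Tcrg-V6 UMI was found in the 6634 kept KO cells, whereas 990 of them held a Tcrg-V4 UMI, 1291 UMIs in all. Whether the strain can still make a readable Tcrg-V4 transcript is not known here. The library labelled KO is meant wherever KO is written. Among the chosen cells, 69 of 766 held a Tcrg-V4 UMI. Levels are given below as CPM, the count of a gene scaled to a common total (1000000) of the UMIs summed over a group of cells. Shares of cells with a UMI were taken after thinning each cell to 2000 UMIs, which left 716 of the 766 cells.

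Sequences upstream of 5 genes are shown here because Ly6c2 chose the cells, Ly6c1 is its near copy, and Klrc1, Cxcr3 and Samd3 were among the genes furthest above the neighbouring cells. They are the 250 bases before the annotated start in RefSeq on GRCm38.p6, written 5′ to 3′ on the strand of the gene: Ly6c2 at chr15:75111972-75112221 (minus), Ly6c1 at chr15:75048838-75049087 (minus), Klrc1 at chr6:129678974-129679223 (minus), Cxcr3 at chrX:101734148-101734397 (minus) and Samd3 at chr10:26229457-26229706 (plus). Capitals mark matches, on either strand, to the core letters bound by RUNX factors (TGTGGT, read ACCACA on the other strand), ETS factors (GGAAGT or ACTTCC) and T-box factors (AGGTGT or ACACCT).
Ly6c2: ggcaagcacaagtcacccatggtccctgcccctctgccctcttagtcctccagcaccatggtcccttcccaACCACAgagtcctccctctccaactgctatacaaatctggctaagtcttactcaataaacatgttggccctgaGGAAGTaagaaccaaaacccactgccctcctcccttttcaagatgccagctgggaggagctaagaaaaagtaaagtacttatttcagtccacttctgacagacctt
Ly6c1: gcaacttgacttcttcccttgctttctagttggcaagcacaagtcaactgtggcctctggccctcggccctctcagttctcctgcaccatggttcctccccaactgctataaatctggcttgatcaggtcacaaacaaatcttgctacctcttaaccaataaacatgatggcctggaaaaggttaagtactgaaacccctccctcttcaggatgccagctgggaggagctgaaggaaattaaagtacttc
Klrc1: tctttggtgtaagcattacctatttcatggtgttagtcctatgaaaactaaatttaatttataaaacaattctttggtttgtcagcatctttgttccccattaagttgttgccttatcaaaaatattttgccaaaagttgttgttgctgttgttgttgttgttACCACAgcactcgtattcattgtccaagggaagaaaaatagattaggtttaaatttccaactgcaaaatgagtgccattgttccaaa
Cxcr3: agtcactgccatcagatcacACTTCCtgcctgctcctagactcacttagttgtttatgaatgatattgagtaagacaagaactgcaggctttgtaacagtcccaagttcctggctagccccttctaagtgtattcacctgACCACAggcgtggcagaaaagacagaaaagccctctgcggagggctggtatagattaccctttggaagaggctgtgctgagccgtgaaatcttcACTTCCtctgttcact
Samd3: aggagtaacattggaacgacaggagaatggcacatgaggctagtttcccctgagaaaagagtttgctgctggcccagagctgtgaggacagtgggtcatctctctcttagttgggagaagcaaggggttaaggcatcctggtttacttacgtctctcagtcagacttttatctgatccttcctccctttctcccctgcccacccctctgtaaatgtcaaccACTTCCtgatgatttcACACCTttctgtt

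The Ly6c2 window held 1 RUNX and 1 ETS core, and the Ly6c1 window held none of the 3 motifs. The Klrc1 window held 1 RUNX core, the Cxcr3 window a RUNX core and a pair of ETS cores, and the Samd3 window an ETS and a T-box core. Of the 10 genes furthest above the double-zero cells described next, 9 had a promoter in the reference table. RUNX cores lay in 4 of these 9 (Klrk1, Klrc1, Serpina3g and Cxcr3), ETS cores in 4 (Samd3, Cxcr3, Fasl and Tbx21) and a T-box core in 1 (Samd3). Of the 10 furthest below, 6 had a promoter, with no RUNX or ETS core and a T-box core in 1 (St8sia1). Among all 27025 promoter windows of this length, 14.2% held the RUNX core, 20% the ETS core and 12% the T-box core. Ccl5 and Klrd1 had no entry. A match of letters is a description and not a binding site.

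Ly6c2 (protein-coding, chr15:75108158-75111970, minus strand) and Ly6c1 (chr15:75044018-75048830, minus strand) are neighbours whose longest coding transcripts matched at 802 of 822 aligned bases (97.6%). Of 773 runs of 50 bases in the Ly6c2 transcript, 252 (32.6%) also occur in Ly6c1, so part of the reads cannot be assigned to one copy with certainty. Ly6c1 was at 13.4 CPM in the Ly6c2+Ccl5+ cells and at 53.9 CPM in the double-zero cells, while Ly6c2 was at 1567 and 0 CPM by choice.

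The values that chose the cells were spread widely. A chosen cell held between 1 and 42 Ly6c2 UMIs, with a median of 4, and between 1 and 123 Ccl5 UMIs, with a median of 22. At the edge of the rule, 140 cells held a single Ly6c2 UMI, 27 a single Ccl5 UMI and 11 a single UMI of each. UMIs in 2 of the 8 IL-17-type genes were held by 130 chosen cells, and 60 cells were left out for holding exactly 3. UMIs in 2 of the 7 cytotoxic genes were held by 69 chosen cells, and 27 were left out for exactly 3. When the rule was applied after thinning to 2000 UMIs, it took 786 of 5806 KO cells (13.5%, 12.7% to 14.4%) and 279 of 2125 WT cells (13.1%, 11.7% to 14.6%), so the intervals of the 2 libraries overlapped.

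The chosen cells read as T cells. A UMI of Cd3e, Cd3d or Cd3g, which encode the CD3 chains, was found in 704 of 716 thinned cells (98.3%). A γ or δ constant-region UMI was found in 35.1%, a Trac UMI (the α constant region) in 6.15%, and a Trac and a Trbv UMI together in 1.82%. β variable genes were read in 37.6%, led by Trbv12-2, which was read in 115 of the 766 cells. B cell markers were near 0, with 2 or more of 7 such genes in 6 of 766 cells, and 2 or more of 10 myeloid markers were read in 12. Before thinning, only 144 of the 766 cells held no UMI of Trbc1, Trbc2, Trac, Cd4 or Cd8a. In the double-zero cells, defined below, 431 of 1458 held none, and after thinning 44.1% had a γ or δ constant-region UMI. The part of αβ T cells in these UMIs was not tested.

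Cells of the same gate with no Ly6c2 and no Ccl5 UMI, called double-zero cells here (1458 cells, median 2888.5 UMIs), were the main cells compared. Klrd1 stood at 342 CPM in the Ly6c2+Ccl5+ cells, 52.3 in double-zero cells, 137 in the 139 cells with Ly6c2 alone and 242 in the 695 cells with Ccl5 alone. Klrc1 stood at 191 CPM against 13.9, with 80.8 and 51.8 in the single-positive cells. Sidt1 stood at 401 CPM against 140, with 239 and 326 in the single-positive cells. All 3 genes were thus highest where both transcripts were present and lowest where both were missing, with the single-positive cells between. On the log2 scale the difference between chosen and double-zero cells was 3.79 for Klrc1 (interval 3.41 to 4.19), 2.71 for Klrd1 (2.50 to 2.92) and 1.52 for Sidt1 (1.38 to 1.66).

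Read as shares of thinned cells, Klrd1 was found in 43.0% of the chosen cells (39.4% to 46.7%) and 8.77% of double-zero cells, and Sidt1 in 51.4% (47.7% to 55.1%) and 16.4%. Klrc1 was found in 21.1% (18.2% to 24.3%) and 0.763%. In 48 thinned B or myeloid cells of the KO library, the shares were 8.33% for Klrd1, 6.25% for Klrc1 and 16.7% for Sidt1. The median depths of these cells were 3708.5 and 6044 UMIs, and cells with a CD3 UMI were not left out, so this background is rough. The shares of double-zero cells therefore lay at or below that background for Klrc1 and Sidt1 and near it for Klrd1, and those of the chosen cells lay above it. Of the chosen cells, 21.5% held none of the 3 transcripts, 46.0% held 1, 28.1% held 2 and 4.47% held all 3, whereas 76.5% of double-zero cells held none and 0 of 1049 held all 3, which allows a share of up to 0.286%.

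**Figure D1:**
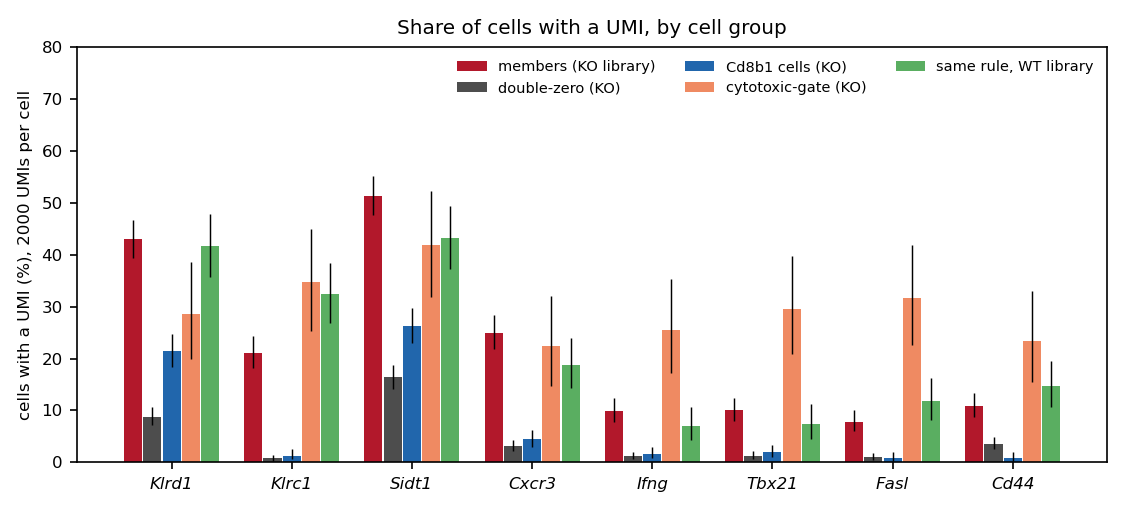
Share of cells with at least 1 UMI of 8 genes after thinning to 2000 UMIs per cell (y axis, percent), in the Ly6c2+Ccl5+ cells (members), the double-zero, Cd8b1 and cytotoxic-gate cells of the KO library and the WT cells under the same rule; bars are shares and lines exact 95% binomial intervals for counting error. For Klrd1 the Ly6c2+Ccl5+ cells of both libraries stand highest, at 43.0% and 41.7%, whereas Fasl, Ifng and Tbx21 are highest in the cytotoxic-gate cells.

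A gene was called higher or lower where its level differed by more than 1.5-fold with at least 30 UMIs over both sums. Of 9465 genes compared with the double-zero cells, 369 were called higher (3.9%) and 1572 lower (16.6%), and the median gene lay at -0.18 on the log2 scale. Of all calls, 19.01% were higher ones, a split that moved to 40.6% with median-of-ratios size factors, which set the median gene at 0. Ribosomal protein genes took 23.4% of UMIs in the chosen cells and 18.9% in the double-zero cells. Of the 1458 double-zero cells, 21.6% also fell in a cluster with a median of 1796 UMIs that held only 4 chosen cells, and without that cluster 1033 genes were called lower. Differences are best read against that shifted median. A gene that reaches 30 UMIs through 1 group alone has to differ, so counts over the genes of a list that passed are a description.

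The 10 genes furthest above the double-zero cells included receptors of NK cells and the interferon-γ gene with its main regulator. Klrk1, which encodes the activating receptor NKG2D, stood at 55.8 CPM against 3.80 (log2 3.88, 3.15 to 4.69). Samd3 stood at 45.2 against 3.13 CPM (log2 3.85). Serpina3g and Serpinb9, both inhibitors of proteases, stood at 52.6 against 4.47 and at 157.5 against 21.5 CPM. Serpinb9 protects cytotoxic lymphocytes from their own granzyme B. Cxcr3, the chemokine receptor of type 1 T cells, stood at 150.1 against 19.9 CPM (log2 2.92, 2.58 to 3.26). Fasl, the ligand that triggers death through Fas, stood at 44.9 against 6.93, Ifng at 58.3 against 9.39, and Tbx21 at 61.1 against 10.3 CPM.

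Furthest below stood a chemokine receptor of thymocytes. Ccr9, also used by gut-homing T cells, was at 15.2 CPM against 103.1 (log2 -2.76, -3.25 to -2.31). Cd24a, a surface protein lost as thymocytes mature, was at 31.4 against 135 CPM, and the insulin-like growth factor genes Igf1r and Igfbp4 were at 21.5 against 95.7 and at 40.6 against 171.7 CPM. St8sia1, Gria3, Tcf7l2, Tmlhe, Adamts6 and Trib2 completed the 10, with log2 ratios from -2.70 to -1.99.

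**Figure D2:**
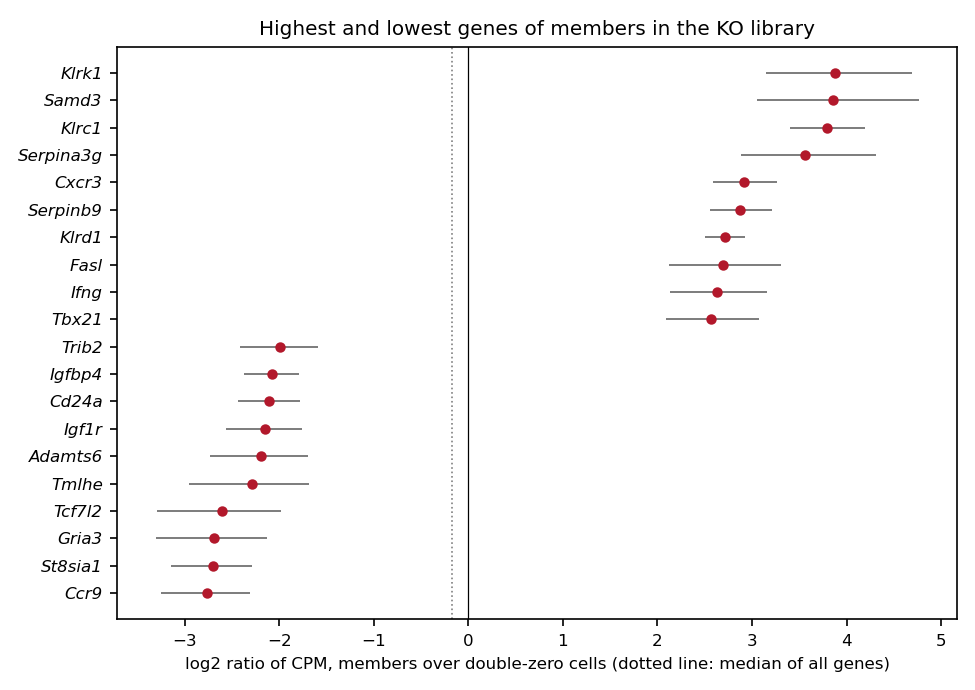
Log2 ratio of CPM (x axis) of the Ly6c2+Ccl5+ cells (members) over double-zero cells for the 10 highest and 10 lowest genes, leaving out the genes of the rule, T cell receptor genes and sex-linked genes; points are ratios, lines exact 95% intervals for counting error, and the dotted line the median of all genes at -0.18. Klrk1 stands highest at 3.88 and Ccr9 lowest at -2.76.

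Gene lists were read by role, beside the 3.9% of all genes called higher and the 16.6% called lower. Of 12 type 1 and memory genes with enough UMIs, 8 were called higher and 1 lower, with a list median of 1.17 against -0.18 over all genes. Besides those already given, Il12rb2, which transmits IL-12, was at 241 against 84.3 CPM, Il18rap at 46.6 against 14.8, Il2rb at 749 against 443 and the activation marker Cd44 at 54.0 against 30.4. Cd27, the marker of the interferon-γ branch, was at 365 and 404 CPM, a difference of -0.15 on the log2 scale. The 1 lower gene was Ly6a (Sca-1), at 70.6 against 123.6 CPM. Of 6 granule genes, 4 were called higher, among them Nkg7, at 548 against 213 CPM, and Ctsw (cathepsin W), at 490 against 223.

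Receptors of NK cells were higher as a group. The 22 genes of that list summed to 837 CPM in the chosen cells and 168 in the double-zero cells, with Klrd1 and Klrc1 the largest contributors. Only 10 of the 22 had enough UMIs, and 9 of these were called higher, some of which passed the minimum through the chosen cells alone. Klrc2, which encodes the activating partner NKG2C, was at 16.95 against 1.34 CPM. Klra3, an inhibitory Ly49 receptor, was at 13.8 CPM and at 0 in the double-zero cells. With that 0 set to a floor of 3 UMIs over the group, the log2 ratio was 4.36. The Klra and Klrc genes are close copies, and reads may be split among them. Tyrobp (DAP12), the adaptor of activating receptors, was the 1 gene not called, at 30.02 against 35.1 CPM.

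Genes of naive and stem-like T cells were all below the double-zero cells, but mostly by less than 1.5-fold. Of 10 genes, none was called higher and 4 lower (Bach2, Myb, Satb1 and Foxo1), with a median of -0.52 and a range from -0.82 to -0.28. Lef1 and Tcf7, which encode the factors that hold T cells in a naive or memory precursor state, were at 611 against 744 and at 343 against 492 CPM. Of 9 recirculation genes with enough UMIs, 1 was called higher and 2 lower, where 3.9% of all genes were higher and 16.6% lower. The lower ones were Ccr9 and Itga4, and the range was from -2.76 to 0.85. Klf2 was at 832 against 848 CPM, S1pr1, the receptor that leads T cells out of tissue, at 345 against 435, and Ccr7, the lymph node homing receptor, at 503 against 675. Of 7 residency genes, Rgs1 and Itgb2 were called higher and Itgae and Ccr8 lower, with Itgae (CD103) at 13.1 against 42.5 CPM.

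Of 5 genes of immature T cells, 4 were called lower and none higher (Ccr9, Cd24a, Sox4 and Tox), with a median of -1.78. Sox4 was at 45.9 against 157 CPM and Tox at 46.6 against 150. Of 13 other genes of the IL-17 branch, 9 had enough UMIs, of which 5 were lower and 1 higher. Il23r, the IL-23 receptor, was at 1.77 against 17.9 CPM, whereas Cd163l1 (SCART1) was at 129 against 73.6. Over all genes, 3.9% were called higher and 16.6% lower. Of 16 costimulatory and inhibitory receptors, 4 were higher, among them Slamf7 (32.5 against 5.81 CPM) and Cd2 (321 against 128). Another 3 were lower, near the share over all genes, among them Ctla4 (29.3 against 103). The transcription factors went both ways, with Hopx at 97.1 against 28.8 CPM, and with Zbtb16 (PLZF), the factor of innate-like T cells, at 71.0 against 172.8. Of 37 interferon-stimulated genes, 4 were higher and 1 lower, with a median of 0.11. Gimap7 and Gimap4 of the GIMAP family of lymphocyte survival genes were at 100 against 36.9 and at 516 against 255 CPM. B cell markers summed to 160.5 CPM in the double-zero cells, and Lyz2, a myeloid transcript, was at 24.7 in the chosen and 99.9 CPM in the double-zero cells.

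The chosen cells were next set against Cd8b1 cells, which hold a Cd8b1 UMI and pass the other exclusions (718 cells, median 3317.5 UMIs). Of 8740 genes, 589 were called higher (6.74%) and 560 lower (6.41%), with a median of -0.029. Of the 12 type 1 and memory genes, 8 were higher and 1 lower (median 1.84), and the 22 NK receptor genes summed to 837 against 235 CPM. Klrc1 was at 191 against 11.7 CPM (log2 4.04, 3.52 to 4.61), Klrk1 at 55.8 against 4.89, Fasl at 44.9 against 6.01 and Cd44 at 54.0 against 8.64. Klrd1 differed less, at 342 against 162 CPM (log2 1.08), and Sidt1 was at 401 against 191.

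None of the 10 naive and stem-like genes was called against the Cd8b1 cells, with a median of -0.33. Ccr7 was at 503 CPM against 964 and Ccr9 at 15.2 against 96.2. Samd3, Plek and Litaf completed the 5 genes furthest above, and the 5 furthest below were Gm14085, Cd8a, Ccr9, Ikzf4 and St8sia1. Cd8a encodes the chain that pairs with the product of Cd8b1, the gene that chose the compared cells. The anti-apoptotic Bcl2 relatives Bcl2a1b and Bcl2a1d, were at 42.0 against 8.27 and at 27.9 against 5.64 CPM, and as near copies they are given with that uncertainty.

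Cytotoxic-gate cells, which hold UMIs in 3 or more of the 7 cytotoxic genes (101 cells, median 3888 UMIs), stood on the other side. Unlike the Cd8b1 cells, they did not have to pass the other exclusions, so cells with Cd8b1, Trav15-dv6 or IL-17-type UMIs remained among them. Of 7821 genes, 777 were called higher in the Ly6c2+Ccl5+ cells (9.93%) and 891 lower (11.4%), with a median of -0.044. Of 12 type 1 and memory genes, 6 were lower and none higher (median -0.64), with Tbx21 at 61.1 against 196 CPM, Il18rap at 46.6 against 131 and Fasl at 44.9 against 122. Cxcr3 was at 150 against 124, and Cd27 at 365 against 247 CPM. The 22 NK receptor genes summed to 837 against 2050 CPM, and of the 13 with enough UMIs, 12 were lower and 1 higher. The 1 higher gene was Klrd1, at 342 against 208 CPM (log2 0.72), whereas Klrc1 was at 191 against 386, Klra5 at 3.18 against 58.8 and Tyrobp at 30.02 against 249. Nkg7 was at 548 against 1134 CPM.

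Of the 10 naive and stem-like genes, 3 were higher than in the cytotoxic-gate cells and none lower (median 0.45). Lef1 was at 611 against 330 CPM, Tcf7 at 343 against 212 and Myb at 148 against 78.5. Ccr7 was at 503 against 198. Of 8 cell cycle genes, 7 were lower, and of 37 interferon-stimulated genes, 13 were higher and none lower (median 0.38). Over all genes of this comparison, 9.93% were higher and 11.4% lower. Rcn3, Gm8369, Ppic, Tdrp and Rflnb were the 5 genes furthest above, but Rcn3 and Ppic rest on 3 and 5 UMIs in the cytotoxic-gate cells. The count of cytotoxic genes chose the cytotoxic-gate cells and limited the Ly6c2+Ccl5+ cells, so the order of these groups is a description. Levels are also sums over cells that differed by cluster, as given below. For Klrc1, Klrk1, Fasl, Ifng and Tbx21, the Ly6c2+Ccl5+ cells stood between the double-zero and Cd8b1 cells on one side and the cytotoxic-gate cells on the other. For Klrd1 they stood above all of them. In the WT library Klrd1 did not follow that order, at 316 CPM in cells under the same rule and 341 in cytotoxic-gate cells, with a UMI in 41.7% (35.8% to 47.8%) and 51.4% (39.2% to 63.6%) of thinned cells.

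**Figure D3:**
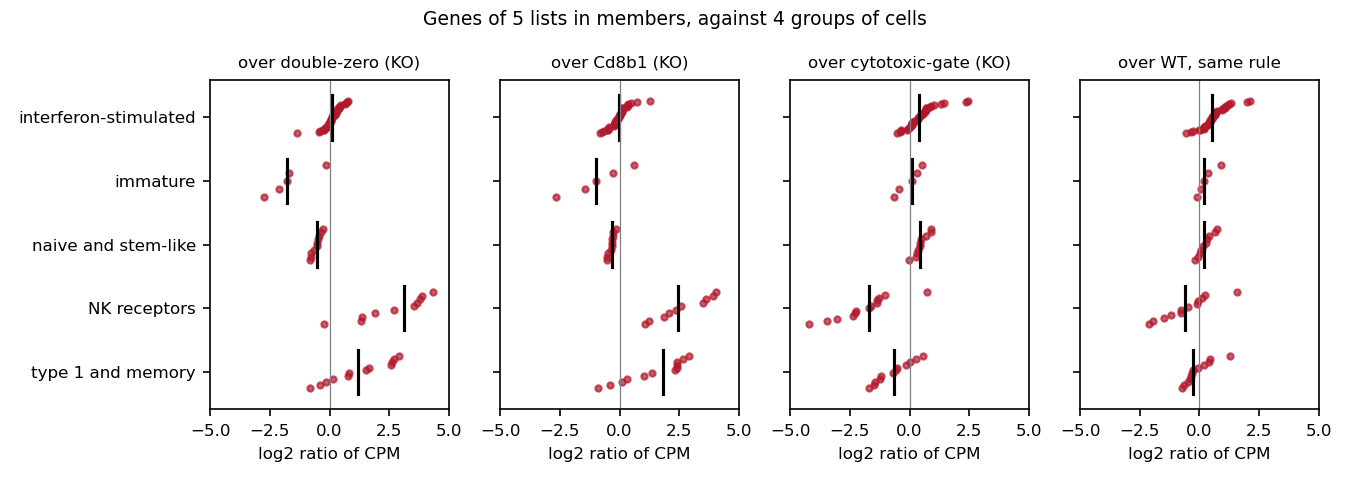
Log2 ratio of CPM (x axis) of the Ly6c2+Ccl5+ cells (members) over 4 groups of cells (panels), 1 point per gene of 5 lists with at least 30 UMIs over both sums; black bars are list medians. Among NK receptor genes, Klrc1 lies to the right against double-zero cells (3.79) and Cd8b1 cells (4.04) and to the left against cytotoxic-gate cells (-1.01).

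The chosen cells did not form 1 cluster. The KO library was clustered without the genes of the rule, T cell receptor genes and sex-linked genes, which gave 8 clusters, and the 3 that held most chosen cells are described here by number and leading genes. Cluster 0, led by Gm8369, Rflnb, Socs3, Ppic and Ccr7, held 295 (38.5%, 35.1% to 42.1%). It also held 76.6% of the Cd8b1 cells and 42.1% of the double-zero cells. Cluster 1, led by Klrc1, Fasl, Samd3, Kcnj8 and Fcer1g, held 239 (31.2%, 27.9% to 34.6%), together with 76.2% of the cytotoxic-gate cells and 6.04% of the double-zero cells. Cluster 3, led by Kit, histone genes, Ovol2 and Sox4, held 193 (25.2%) and 22.8% of the double-zero cells. Clusters 0 and 3 thus held chosen and double-zero cells at like shares, unlike cluster 1. A cluster led by heat shock genes held 27, and the remaining 4 clusters held 12 in all.

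Across these 3 clusters the chosen cells shared some marks and divided over others. Klrd1 was at 362, 316 and 354 CPM in the chosen cells of clusters 0, 1 and 3, Sidt1 at 378, 426 and 421, and Cd27 at 353, 356 and 414. Klrc1 was at 34.4, 519 and 80.3 CPM in the same order. Fasl was at 5.06, 129 and 9.18, Klrk1 at 18.2, 150 and 16.1, Ifng at 21.3, 120 and 21.8, Tbx21 at 32.4, 127 and 34.4, and Serpinb9 at 34.4, 397 and 82.6 CPM. Klrd1, Sidt1 and Cd27 were therefore close to even, while the interferon-γ and killing genes were carried mainly by the chosen cells of cluster 1. Since these genes took part in the clustering, their spread over clusters is a description.

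Ccr7 ran the other way, at 801, 130 and 513 CPM in clusters 0, 1 and 3, with Lef1 at 649, 406 and 770 and Tcf7 at 380, 232 and 399. Sox4 and Ccr9, of the immature list, were highest in cluster 3, at 98.7 and 26.4 CPM, against 15.2 and 8.10 in cluster 0. The genes of the rule were also highest in cluster 1, with Ly6c2 at 1400, 2416 and 983 CPM and Ccl5 at 5836, 10585 and 5112. Il2rb, like Cd27, was spread over all 3, at 661, 886 and 778 CPM. Fasl, Ifng and Tbx21 were thus highest in the 31.2% of chosen cells that lay in cluster 1, while Klrd1, Sidt1, Cd27 and Il2rb were present throughout.

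**Figure D4:**
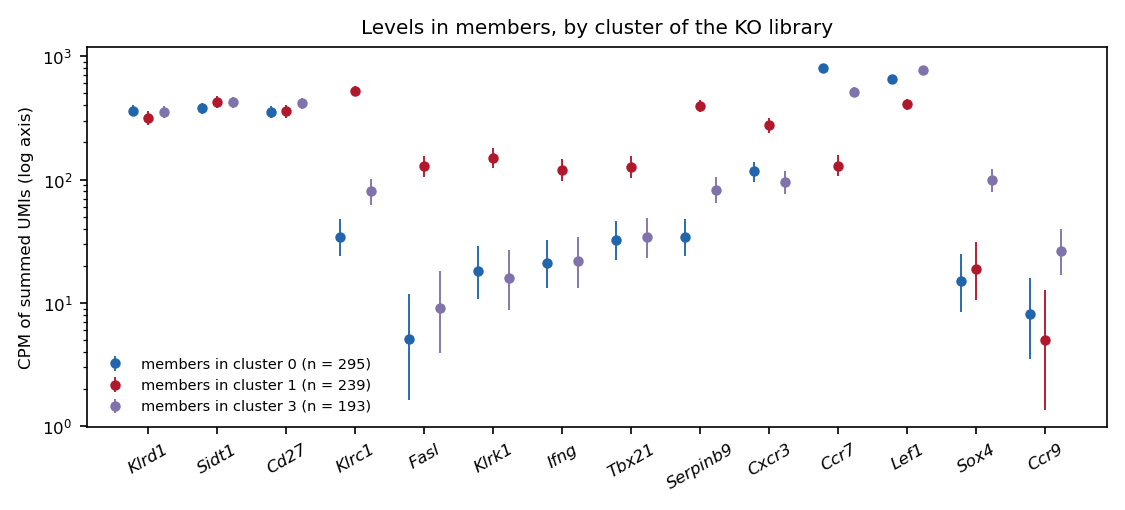
CPM of summed UMIs (y axis, log scale) of 14 genes in the Ly6c2+Ccl5+ cells (members) of clusters 0 (295 cells), 1 (239 cells) and 3 (193 cells); points are levels and lines exact 95% Poisson intervals for counting error. Klrd1, Sidt1 and Cd27 are close to even, whereas Klrc1 stands at 519 in cluster 1 against 34.4 and 80.3.

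The chosen cells were also split by Klrc1 itself. Klrc1 leads cluster 1, and it was read in 61.5% of the chosen cells there, against 7.12% in cluster 0 and 15.5% in cluster 3. The split is therefore not independent of the clusters. The 205 chosen cells with a Klrc1 UMI had a median of 3135 UMIs and the 561 without it 3478. Fasl was at 122.6 CPM with Klrc1 and 19.6 without, and Fgl2 at 54.8 and 10.3. Dapl1, Id3, Ahcyl2, Sox4 and Ppic were furthest below, with log2 ratios from -2.36 to -1.95. Ccr7 was at 264 against 580 CPM. Klrd1, whose product pairs with that of Klrc1, was not raised with it. After thinning, a Klrd1 UMI was found in 62 of 151 cells with Klrc1 (41.1%, 33.1% to 49.3%) and 246 of 565 without (43.5%, 39.4% to 47.7%).

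The level of Ly6c2 ran with several of these genes. The thinned cells were divided into those with 0 or 1, 2 or 3, and 4 or more Ly6c2 UMIs (235, 209 and 272 cells). Klrc1 was at 106, 230 and 278 CPM, Nkg7 at 428, 502 and 693, Serpinb9 at 113, 134 and 259, and Klrk1 at 29.8, 31.1 and 97.4. Isg15, an interferon-stimulated gene, was at 76.6, 112 and 222, whereas Klrd1 was at 336, 361 and 371 and Tcf7 fell through 360, 330 and 279 CPM. Klrc1, Nkg7, Serpinb9 and Klrk1 were thus highest where Ly6c2 was, and Klrd1 was nearly level.

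Receptor genes were free of the rule except for the Trav15-dv6 genes. Of 262 chosen cells in which a single γ variable gene was read, 205 had Tcrg-V1 (78.2%, 72.8% to 83.1%), 35 Tcrg-V4 (13.4%, 9.48% to 18.1%) and 17 Tcrg-V3 (6.49%). Double-zero cells gave Tcrg-V1 in 428 of 510 (83.9%, 80.4% to 87.0%). Of 360 chosen cells with a single δ variable gene, 139 had Trdv1 (38.6%, 33.6% to 43.9%), 100 Trdv2-2 (27.8%, 23.2% to 32.7%), 58 Trdv5 (16.1%) and 29 Trav13-4-dv7 (8.06%, 5.46% to 11.4%). In 714 double-zero cells the order was reversed for the first pair, with Trdv2-2 at 41.0% (37.4% to 44.7%) and Trdv1 at 22.1% (19.1% to 25.4%). Cd8b1 cells stood between, with Trdv1 at 33.4% and Trdv2-2 at 37.4%.

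Some genes of the chosen cells differed with the δ gene, and others did not. Chosen cells with Trdv1 had Klrk1 at 18.97 CPM (9.10 to 34.9), those with Trdv2-2 at 54.6 (33.4 to 84.4) and those with Trdv5 at 109.7 (69.5 to 164.6). Serpinb9 was at 77.8, 156 and 129 CPM in the same order, and Id2, which encodes an inhibitor of E proteins, at 108, 197 and 272. Klrd1 was at 315, 361 and 353 CPM, Ifng at 53.1, 54.6 and 42.9 and Cxcr3 at 142, 139 and 143. The 29 chosen cells with Trav13-4-dv7 had Klrk1 at 8.87 CPM, from 1 UMI, and Cxcr3 at 257. By cluster, Trdv1 stood at 469 CPM in the chosen cells of cluster 0, 111 in cluster 1 and 265 in cluster 3.

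The WT cells under the same rule (286 cells, median 3871 UMIs) used other receptors. A single γ gene was read in 98, of which 74 had Tcrg-V4 (75.5%, 65.8% to 83.6%) and 15 Tcrg-V1 (15.3%). Of 192 WT cells with a single δ gene, 132 had Trav13-4-dv7 (68.8%, 61.7% to 75.2%) and 0 had Trdv1, which allows a share of up to 1.56%. WT double-zero cells gave Trav13-4-dv7 in 25 of 253 (9.88%, 6.497% to 14.2%). In the WT library Trav13-4-dv7 was thus more frequent with Ly6c2 and Ccl5 than without, whereas in the KO library it was read in 8.06% and 9.10%. The libraries were sorted for and against Vγ1, and the KO strain by its label lacks Vγ4 and Vγ6. The parts of sort and strain in the γ genes cannot be told apart.

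**Figure D5:**
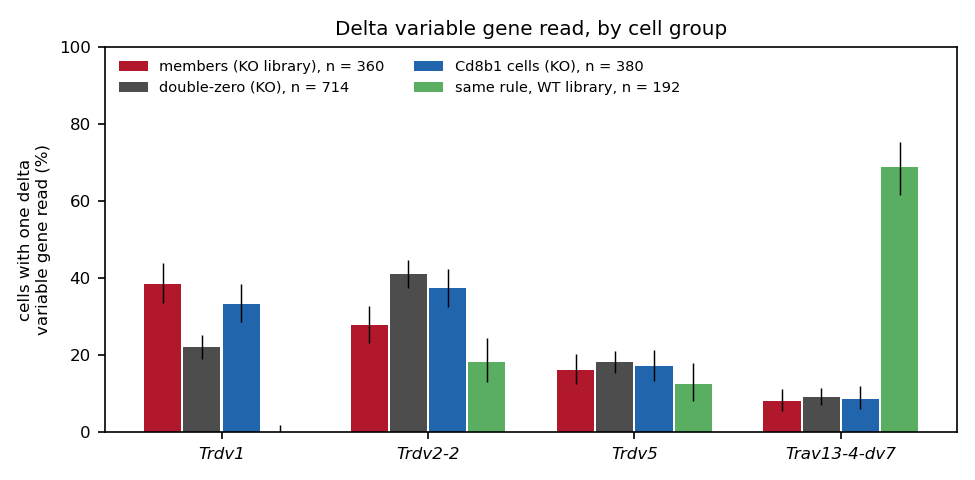
Share of cells with each of 4 δ variable genes (y axis, percent) among cells with a single δ variable gene read, in the Ly6c2+Ccl5+ cells (members, n = 360), KO double-zero cells (714), KO Cd8b1 cells (380) and WT cells under the same rule (192); lines are exact 95% binomial intervals for counting error. Trdv1 leads in the Ly6c2+Ccl5+ cells of the KO library (38.6%) and Trav13-4-dv7 in those of the WT library (68.8%).

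Beyond receptors, the chosen cells of both libraries carried the same marks at like levels. Klrd1 was at 342 CPM in KO and 316 in WT cells, Sidt1 at 401 and 317, Cxcr3 at 150 and 111, Ifng at 58.3 and 71.7, Tbx21 at 61.1 and 46.4, and Cd27 at 365 and 468. Klrc1 was lower in the KO cells, at 191 against 324 CPM (log2 -0.76), and a Klrc1 UMI was found in 21.1% against 32.5% (26.9% to 38.4%) of thinned cells. Of 8168 genes, 730 were called higher (8.94%) and 623 lower (7.63%), with a median of 0.036. Of the 12 type 1 and memory genes, 1 was higher (Ly6a) and 2 lower (Runx3 and Cd44), and the 22 NK receptor genes summed to 837 against 1262 CPM. The sort, genotype, strain and library differed together between these cells and cannot be told apart. A Y-linked UMI was read in 2 of 716 KO and 41 of 271 WT thinned cells, so the mix of sexes differed along with them.

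Interferon-stimulated genes stood higher in KO than in WT cells under the rule. Of 37, 17 were called higher and none lower, with a median of 0.54, where 8.94% of all genes were called higher and 7.63% lower. Gbp2, an interferon-induced GTPase, was at 104 against 45.6 CPM, Igtp at 127 against 59.9 and Xaf1 at 26.8 against 6.75. Between the double-zero cells of the libraries the same 37 genes gave 8 higher and 3 lower (median 0.20), where 9.17% of 9361 genes were called higher and 18.6% lower. Gbp2 was at 77.8 and 59.4 CPM there.

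Some of the widest KO to WT differences had the same direction in cells outside the rule. Klf2 was at 832 CPM in KO and 209 in WT cells under the rule, and at 848 and 199 in double-zero cells. Arhgef12 was at 2.12 against 38.0 under the rule and at 3.58 against 56.4 in double-zero cells, and Tysnd1 at 36.4 against 8.44 and at 24.1 against 10.5, a narrower difference. Gm8797, Rpl9-ps6, Gm9750 and Ftl1-ps1, also among the widest, are pseudogenes or near copies and are uncertain. Zbtb16 and the IL-17-branch gene 5830411N06Rik (SCART2) behaved otherwise. Zbtb16 was at 71.0 against 16.04 CPM under the rule and at 172.8 and 156.4 in double-zero cells, and 5830411N06Rik at 68.9 against 13.5 and at 206 and 330. Of 5 measured myeloid markers, 4 were lower in KO cells under the rule and none higher, where 7.63% of all genes were lower. Lyz2 was at 24.7 in KO and 240.6 CPM in WT cells and Cd14 at 0.353 and 29.5, and their part in these differences was not tested.

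The step from double-zero to Ly6c2+Ccl5+ cells was read in both libraries side by side. In WT cells 434 of 7600 genes were called higher (5.71%) and 2259 lower (29.7%), with a median of -0.25. The 547 WT double-zero cells had a median of 2153 UMIs, and a CD3 UMI was read in 86.4% of the 301 thinned ones. Epithelial, endothelial and blood transcripts summed to 2696 CPM in them and 60.8 in the WT cells under the rule, B cell markers to 425 and 79.3, and myeloid markers to 884 and 598. Of 12 genes of the IL-17 branch with enough UMIs, 11 were called lower in the WT cells under the rule, with Il23r at 0.844 CPM against 266 in WT double-zero cells. The part of all these in the WT values was not tested. The type 1 and memory list gave 8 higher and 2 lower of 12 in WT and 8 and 1 in KO cells, with Cxcr3 at 111 against 8.27 CPM in WT. Klrc1 was at 324 against 16.5, and Klrd1 at 316 against 57.2. Ccr9 was at 14.3 against 75.2, Cd24a at 27.9 against 99.3 and Lef1 at 389 against 469 CPM. Over 7514 genes measured in both, 209 were higher in KO and 433 in WT, and 103 were higher in both, 49.3% of the KO and 23.8% of the WT list, where 2.78% of all these genes were higher in KO and 5.76% in WT. Of the lower genes, 804 were shared, 76.1% of 1057 in KO and 36.8% of 2183 in WT, where 14.1% of all were lower in KO and 29.1% in WT.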

How the data were processed

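γδ T cells from mouse lung were profiled as 2 droplet libraries, 1 per group. The labels name a 3′ protocol and the study's methods a V(D)J kit. The deposited matrices hold UMI counts per gene and cell barcode that the authors made with Cell Ranger on mm10, version 7.0.0 by the file headers and an older one by the study's methods. Gene names and barcodes come from the deposited lists beside the counts. The counts are raw and cover all called cells. For annotation release, strand and intron counting nothing is stated, and overlapping genes and near copies may share reads. Of 32285 gene identifiers, 32158 matched GENCODE M21, which supplied coordinates.

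Cells with over 200 and under 4000 genes and under 10% mitochondrial UMIs were kept, as in the study's methods, which removed 54 KO and 15 WT barcodes. Thinning to 2000 UMIs left out 828 KO and 380 WT cells. No doublet caller was run. The chosen cells, compared groups, 25 lists (273 of 274 genes in the files) and comparisons were chosen with earlier results of these data known, so no list is independent evidence.

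UMIs were summed per library and cell group and given as CPM of the sum. Log2 ratios carry exact conditional 95% intervals, levels exact Poisson intervals and shares exact Clopper-Pearson intervals. Where no cell held a gene, the upper limit printed is 3 counts over the cells read. A group at 0 was set to a floor of 3 UMIs. Calls are past 1.5-fold with at least 30 UMIs over both sums. Cells are not replicates, so no test was run. Besides list genes, the 10 highest and 10 lowest ratios against double-zero cells and the 5 highest and 5 lowest of each other comparison were named, taken from genes read in at least 10% of cells of either group. Clusters came from scanpy 1.11.5 and igraph 0.11.9 (Leiden, resolution 0.5, seed 0) on 2000 variable genes and 30 components with 15 neighbours. Promoter and transcript alignments used biopython 1.88, and other steps Python 3.11.15, numpy 2.4.6, scipy 1.17.1, pandas 2.3.3 and matplotlib 3.10.9. The log2 ratios, their intervals and the thinning were tested on simulated counts, and the other steps were not. Alternatives covered scaling, count minimum, thinning, the rule, doubtful cells and cluster settings.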

Additional observations from a re-analysis of the deposited data

Results flagged for a closer look

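Of 199 list genes with enough UMIs in both libraries, 3 were called in opposite directions between Ly6c2+Ccl5+ and double-zero cells of the KO and the WT library. The difference between libraries was not tested for any of them.

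Cd44, the receptor for hyaluronan and a mark of activated T cells, was at 54.0 CPM in the Ly6c2+Ccl5+ cells and 30.4 in double-zero cells of the KO library, a log2 ratio of 0.83 (0.49 to 1.17). In the WT library it was at 83.6 and 149.7 CPM, a log2 ratio of -0.84 (-1.20 to -0.49).

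Rgs1, a brake on chemokine receptors that is high in resident T cells, was at 108.8 against 59.5 CPM in the KO library (0.87, 0.63 to 1.11) and at 207.6 against 341.5 in the WT library (-0.72, -0.95 to -0.49).

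Cd163l1, a scavenger receptor gene of IL-17-type γδ T cells, was at 129 against 73.6 CPM in the KO library (0.81, 0.59 to 1.03) and at 37.1 against 238 in the WT library (-2.68, -3.17 to -2.22). In all 3 genes the WT double-zero cells stood above every other of these groups. The 13 listed genes of the IL-17 branch, Cd163l1 among them, summed to 2254 CPM in WT and 1144 in KO double-zero cells. The compared cells thus differed between libraries, and the part of this in the opposite directions was not tested.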

How the results depend on the processing

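No paired analysis was possible because there was 1 library a group, for which reason no sample could be left out in turn either. Across all alternatives, 124 of the 164 values that answer a comparison moved by less than 1.5-fold for a count or by less than the counting interval for a share, and 40 moved further.

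Counts of genes moved most with the count minimum. Against double-zero cells (369 higher, 1572 lower), at least 100 UMIs gave 166 and 906 and at least 1 UMI gave 3655 and 3532. Against cytotoxic-gate cells (777 and 891) the same minimums gave 225 and 294, and 1266 and 5846. Against Cd8b1 cells (589 and 560) they gave 228 and 239, and 2641 and 2841. Against WT cells (730 and 623) they gave 283 and 224, and 1586 and 4280. The minimum also changes how many genes are compared, from 7821 to 4632 or 14548 against cytotoxic-gate cells. Against double-zero cells, median-of-ratios size factors gave 645 higher and 943 lower, the mean of per-cell CPM gave 2462 lower, and leaving out the shallowest cluster, an alternative chosen after seeing the data, gave 1033 lower. The rule on thinned cells gave 1438 and 1359 against cytotoxic-gate cells. Without cells holding a Trbc1, Trbc2, Trac, Cd4 or Cd8a UMI, which left 144 chosen cells, counts were 466 and 449 against cytotoxic-gate cells and 356 lower against WT cells. There the log2 ratio of Ppic against cytotoxic-gate cells turned to -0.16 and the immature list's median against Cd8b1 cells to 0.95. The causes were not tested.

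The share of cells under the rule, 13.5% KO and 13.1% WT, was 11.5% and 11.4% without thinning, 12.5% and 11.2% at 1500 UMIs, 9.84% and 9.41% with 2 UMIs of each gene, and 11.2% and 10.96% with fewer than 2 genes of each excluding list. Among chosen cells, Klrd1 was read in 57.6% without thinning and 36.8% at 1500 UMIs, Sidt1 in 67.5% and 42.2%, and Klrc1 in 26.8% without thinning and 16.7% under the stricter lists. The share in the cluster highest in Klrc1 was 36.8% with seed 1.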

Other observations

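Other gene lists described the Ly6c2+Ccl5+ cells further. Of 10 cytokine receptor genes, 2 were called higher than in double-zero cells and 2 lower, where 3.9% of all genes were higher and 16.6% lower. The higher ones were Il2rb and Il4ra, with Il4ra at 220 against 140 CPM. Among the lower ones, Il6ra was at 2.83 against 18.6. Il7r, the IL-7 receptor that keeps memory T cells alive, was at 853 against 710 CPM. Of 14 genes of T cell receptor signalling, 4 were called lower and none higher, where 16.6% of all genes were lower. Cd247, the CD3 ζ chain, was at 253 against 416 CPM, and Lat at 169 against 259, whereas Lck was at 365 against 256.

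Of 7 residency genes with enough UMIs, 5 were called lower than in cytotoxic-gate cells and none higher, where 11.4% of all genes were lower. Itgb1 was at 80.2 CPM against 210, Itga1 (CD49a) at 6.36 against 27.5 and Itgal (LFA-1) at 126 against 228, while Itgb2 was at 176 against 284. Cxcl10, an interferon-induced chemokine that draws Cxcr3-bearing cells, was at 33.2 against 204 CPM, and Il2ra, the high-affinity IL-2 receptor chain, at 8.48 against 66.7.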
